A study of Mus musculus with 8 samples.

Results

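Hepatic iron regulation was examined through 10 genes that were chosen by name, Hamp, Hfe, Tfr2, Tfrc, Trf, Fth1, Ftl1, Slc40a1, Bmp6 and Id1. All 10 were among the 11784 genes of the deposited liver table. Liver poly(A) RNA was sequenced from 8 male C57BL/6J mice with no genetic modification. They were switched from chow at 9 weeks of age, the age that the labels give, to the amino acid defined diet TD.140711 (Control) or its counterpart TD.140712 (Low AA), the second with fewer calories from amino acids and more from carbohydrate. After 4 months on the diet and an overnight fast of about 16 hours, livers were taken from 4 Control mice (F129, F2212, F7111 and F2110) and 4 Low AA mice (H1126, H828, H817 and H1315). The mice were group housed, and the labels do not give cages.

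The liver both stores iron and sets how much of it enters the blood. Hepatocytes secrete hepcidin, the product of Hamp, which binds the iron exporter ferroportin on gut, macrophage and liver cells and blocks the release of iron. Hamp transcription is driven mainly by BMP ligands from sinusoidal endothelial cells through SMAD proteins, with HFE, TFR2 and hemojuvelin acting on the same route, and it is also raised by IL6 through STAT3 in inflammation. Transferrin receptor and ferritin messages add a second layer, in which iron regulatory proteins control ferritin translation and the stability of the receptor message.

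The promoter of Hamp holds short blocks that are known for both routes, and it is shown beside that of Hamp2, its neighbouring copy on chromosome 7, because both genes were followed in the same mice. The stretches come from the RefSeq promoters of GRCm38.p6, on the minus strand, and read 5′ to 3′. That of Hamp is chr7:30944070-30944189 and that of Hamp2 is chr7:30924219-30924338, each ending before the RefSeq transcript start. The GENCODE gene of Hamp2, from 30922372 to 30924681, begins further upstream and holds this stretch. Capitals mark the BMP-responsive block GGCGCC, or the bases at its place in Hamp2, and the STAT block TTCTTGGAA.
Hamp: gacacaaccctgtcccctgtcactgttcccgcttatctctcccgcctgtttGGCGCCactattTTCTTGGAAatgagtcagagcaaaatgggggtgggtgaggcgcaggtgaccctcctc
Hamp2: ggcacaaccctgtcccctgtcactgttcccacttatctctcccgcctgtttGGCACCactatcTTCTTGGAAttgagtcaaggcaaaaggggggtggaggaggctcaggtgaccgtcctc

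The stretches shared 108 of 120 bases. The STAT block was the same in both, with 0 differences, while the BMP-responsive block differed by 1 base, G4A, counted from 1 at its first base with the base of Hamp first. Over all 32851 RefSeq promoters of the same 300 bases, 11.9% held GGCGCC and 8.3% held TTCNNNGAA, on either strand. In 0.0822% GGCGCC was followed by TTCNNNGAA within 20 bases, as in Hamp. Promoters were found for 7 of the 10 genes, without Trf, Slc40a1 and Id1. Among these 7, GGCGCC was in Hamp and in 1 of the promoters of Tfrc, and TTCNNNGAA in Hamp alone. The core TGACNNNGC of the antioxidant response element, known for ferritin and ferroportin genes, was in 12.4% of all promoters and here in Hfe and Bmp6. Each match is a run of letters and not a measured binding site. In Hamp, GGCGCC does not overlap TTCNNNGAA, and TGACNNNGC was not found.

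The values are read counts that the authors scaled between mice and rounded, called scaled read counts here. They summed to between 27876664 and 30799385 per mouse, and the read depth before scaling is unknown. Hepatocyte markers were high in every liver, with albumin above all at 1321262 to 1789498. Control mouse F2212 stood apart from the other mice. It had 36587 of Cela1, a pancreatic elastase gene, against 130 to 288 in the others, and 57733 of the acute-phase gene Saa1 against 68 to 2818. Values without this mouse are given beside the results that it moved most. In bulk liver, fewer cells of a type and less RNA per cell cannot be told apart.

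None of the 10 genes passed the comparison between diets. Values were compared as log2(scaled read count + 1) with limma over all 11784 genes, with Benjamini-Hochberg adjustment, and 47 genes, 0.399% of those tested, passed an adjusted p under 0.05. At an unadjusted p under 0.05, 2 of the 10 passed, against 11.8% of all genes. That count was 0 with H1126, H817, F129 or F2110 left out, and 1 with F2212 left out. In 2 of the 10, the ferritin light chain gene Ftl1 and the ferroportin gene Slc40a1, the 4 Low AA mice did not overlap the 4 Control mice, against 6.81% of all genes. Slc40a1 was the one higher on the Low AA diet, against 3.26% of all genes, and Ftl1 the one lower, against 3.55%. The log2 differences of the 10 genes ran from -0.38 to 0.44 with a median of -0.03, and the median of all genes tested was 0.002. Differences are given as Low AA minus Control throughout, on the log2(scaled read count + 1) scale.

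**Figure D1:**
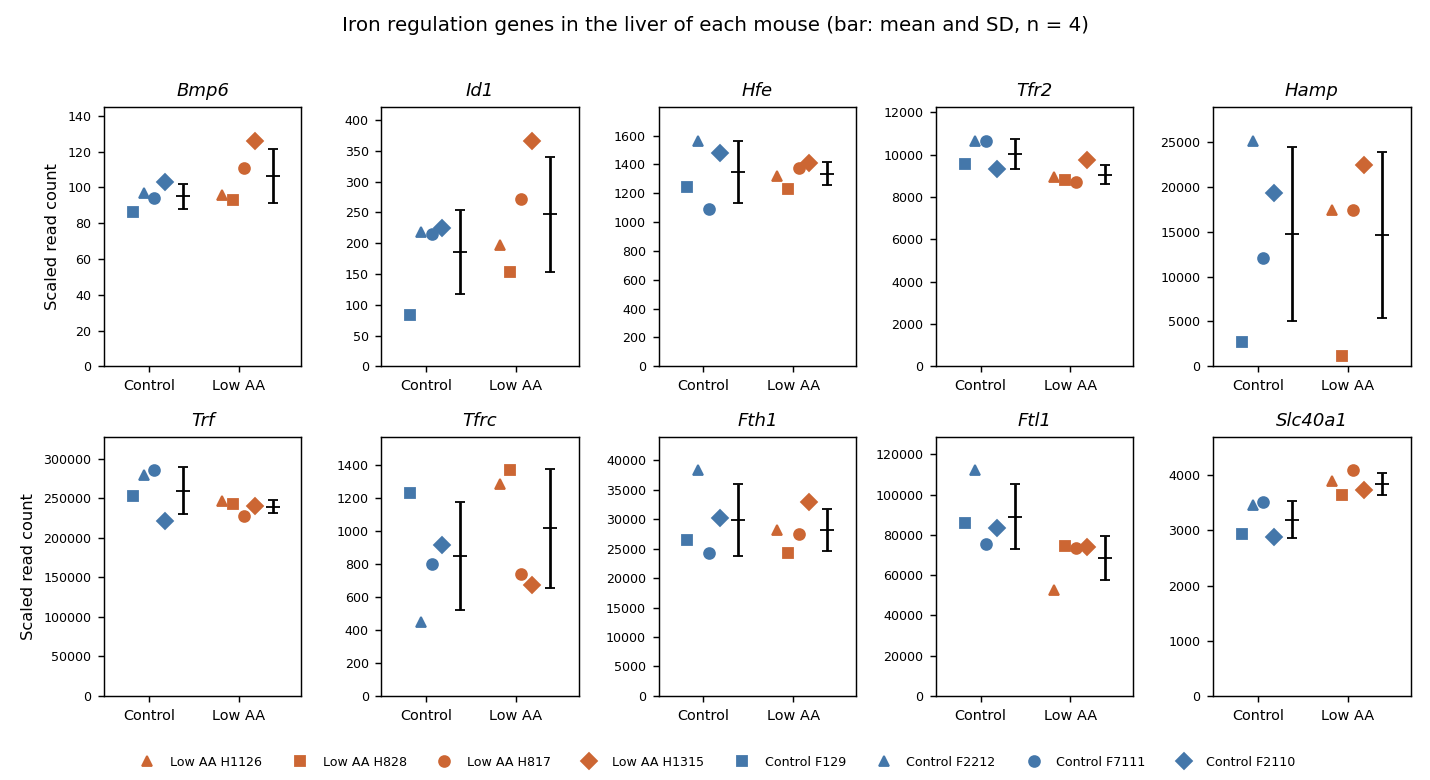
Scaled read counts (y axes from 0) of the 10 iron regulation genes in each Control (blue) and Low AA (orange) mouse, with the mean and SD of 4 mice as a bar. Marker shapes only tell mice apart within a diet. Hamp was low in 1 mouse of each diet, F129 and H828, and Slc40a1 and Ftl1 were the genes whose diets did not overlap.

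Levels of different genes were compared per kilobase of the principal GENCODE transcript. Trf, the gene of the plasma iron carrier transferrin, had the highest median, 95318 scaled read counts per kilobase, followed by Ftl1 at 77272, Hamp at 42561 and Fth1 at 18579. The ranges over the 8 mice of neighbours in this order overlapped, but Trf lay wholly above Hamp and Fth1, and Ftl1 wholly above Fth1. Tfr2, at 3074, lay below Fth1 without overlap, and the wide range of Hamp reached down into that of Tfr2. Slc40a1, at 1062, and Hfe, at 378, were each separate from the next gene above. The range of Id1, at 232, overlapped those of both Hfe and Tfrc, at 176, and Bmp6 was lowest at 26.9 with no overlap.

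Hamp (ENSMUSG00000050440.8, GRCm38 chromosome 7 from 30942368 to 30944032) varied more between mice than any other of the 10 genes, 21.5-fold from lowest to highest. Its scaled read counts were 17454, 1169, 17446 and 22426 in Low AA mice H1126, H828, H817 and H1315, and 2675, 25118, 12023 and 19336 in Control mice F129, F2212, F7111 and F2110. The diets overlapped fully, with 1 low mouse in each and the other 6 mice at 12023 or higher. The log2 difference was -0.24 (standard error 0.95, limma adjusted p = 0.952), and its 95% interval, from -2.35 to 1.87, left several-fold changes in either direction within range. Without Low AA mouse H828 the difference was 0.76, without Control mouse F129 it was -0.93, and without F2212 it was 0.15. Without both it was 0.08 (limma adjusted p = 0.972), a comparison of 3 mice against 3 chosen after the values were seen.

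Hamp2, whose peptide is not known to act on iron, was far below Hamp, with scaled read counts of 143, 24, 59 and 80 in the Low AA mice and 19, 107, 34 and 45 in the Control mice. It was also lowest in F129 and H828. It amounted to 0.233% to 2.05% of Hamp within a mouse, the highest share being in H828, and its log2 difference between diets was 0.58 (standard error 0.58, limma adjusted p = 0.771), or 1.02 without F2212. The submitters' processing notes name RSEM, but the sources used here do not give its settings for reads shared by these neighbouring copies. The levels of Hamp2 are therefore uncertain.

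Bmp6 (chromosome 13 from 38345107 to 38500302) encodes the BMP ligand that follows liver iron. It had scaled read counts of 96, 93, 111 and 126 in Low AA mice H1126, H828, H817 and H1315, and 86, 97, 94 and 103 in Control mice F129, F2212, F7111 and F2110. The highest 2 values were both Low AA and the lowest was Control, but the diets overlapped. The log2 difference was 0.16 (standard error 0.15, 95% interval -0.17 to 0.48, limma adjusted p = 0.755). The ends of Bmp6 and of Txndc5, on the opposite strand, overlap by 224 bases, a far more abundant gene at 3688 to 5111. The libraries were stranded, but whether the counting used the strand is not given, so reads of Txndc5 in the Bmp6 value cannot be told apart. Txndc5 was highest in F2212 and lowest in F2110, and Bmp6 was highest in H1315 and lowest in F129. The part of Txndc5 reads in the Bmp6 value was not tested.

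Id1 (chromosome 2 from 152736251 to 152737410) encodes an inhibitor of basic helix-loop-helix factors and is a direct BMP-SMAD target in hepatocytes. Its scaled read counts were 197, 153, 272 and 366 in the Low AA mice and 83, 218, 215 and 225 in the Control mice, in the same order of mice as above. Control mouse F129 lay far below the other Control mice, and the diets overlapped. The log2 difference was 0.44 (standard error 0.35, 95% interval -0.34 to 1.22, limma adjusted p = 0.703). Without F129 the difference was 0.09, and without H1315, the highest mouse, it was 0.23.

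Across the 8 mice Id1 followed Bmp6. Pearson's r was 0.88 (exact permutation test, two-sided, p = 0.000149) and Spearman's rho was 0.98 (exact permutation test, two-sided, p = 0.000397), and over the 6 relations computed the adjusted values were 0.000894 and 0.00238 (exact permutation tests). After each diet mean was subtracted, r was 0.86. Without the 2 mice farthest from the median of Id1, r was 0.82 over the other 6, and with each mouse left out in turn it lay between 0.86 and 0.93. The relation rests on a narrow range of Bmp6 at low values, 86 to 126, or 1.47-fold. H828, F7111, H1126 and F2212 had 93, 94, 96 and 97, so their order is uncertain. Reads of Txndc5 in the Bmp6 value could also not be told apart. H1315 and H817 were the highest 2 mice for both genes, and F129 and H828 the lowest 2.

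F129 and H828 were also the lowest 2 of the 8 mice for Hamp, Hamp2 and Id3, another BMP-SMAD target, which was at 484 in F129, 491 in H828 and 568 to 1216 in the others. They were also the lowest 2 for the acute-phase genes Saa2 and Lcn2. Other BMP-SMAD targets did not share this order. Smad7 was lowest in H1126 and F129, Smad6 in H1126 and H817, Id2 in H828 and H1126, and Atoh8 in F2110 and F129. Because Hamp fell into separate groups of 2 and 6 mice, its relations were not tested over all 8. Among the 6 mice with high Hamp, r was 0.35 with Id1 (exact permutation test, two-sided, p = 0.478), 0.42 with Bmp6 (exact permutation test, two-sided, p = 0.4) and 0.46 with Saa1 (exact permutation test, two-sided, p = 0.319). The adjusted value was 0.478 for each of these 3 (exact permutation tests). Once F2212 was left out, r was 0.62 with Id1, 0.77 with Bmp6 and -0.30 with Saa1. After each diet mean was subtracted over the 6 mice, r was 0.34 with Id1, 0.44 with Bmp6 and 0.80 with Saa1. Spearman's rho of Hamp with Id1, Bmp6 and Saa1 over the 6 mice was 0.31, 0.43 and 0.54 (exact permutation tests, two-sided, p = 0.564, 0.419 and 0.297, with adjusted values of 0.846, 0.838 and 0.838). Without the 2 mice farthest from the median of Hamp, r over 4 mice was 0.77, 0.78 and 0.21 in the same order. None of these 3 relations passed, at a number of mice that allows wide error.

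**Figure D2:**
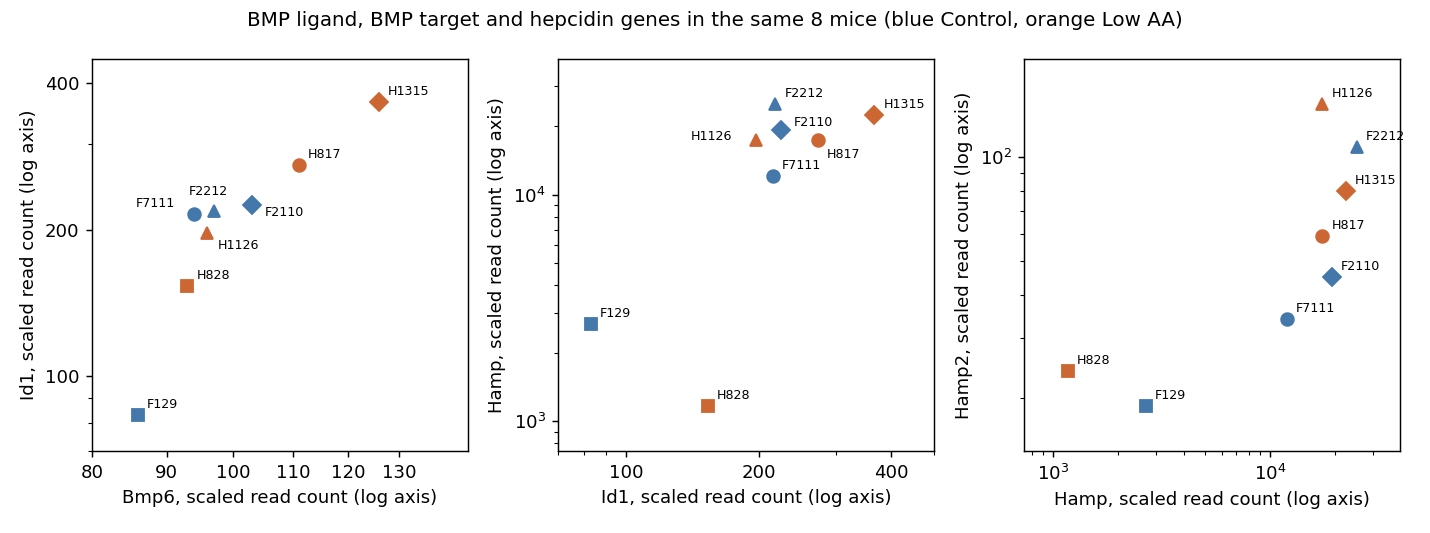
Scaled read counts on log axes in the 4 Control (blue) and 4 Low AA (orange) mice, with each point a mouse. Id1 follows Bmp6 over all 8 mice (left, r = 0.88), while Hamp separates F129 and H828 from the other 6 mice (middle), which are also the lowest 2 for Hamp2 (right).

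Hfe and Tfr2 encode iron sensors of the hepatocyte surface that act on hepcidin. Hfe (chromosome 13 from 23702034 to 23710854) had scaled read counts of 1322, 1227, 1375 and 1411 in the Low AA mice and 1245, 1563, 1092 and 1476 in the Control mice. The Low AA mice lay within the range of the Control mice, and the log2 difference was 0.001 (standard error 0.12, 95% interval -0.27 to 0.28, limma adjusted p = 0.998). Tfr2 (chromosome 5 from 137569840 to 137587481) had 8968, 8825, 8726 and 9734 in the Low AA mice and 9560, 10645, 10659 and 9329 in the Control mice. Only H1315 reached the Control range, and the log2 difference was -0.15 (standard error 0.09, 95% interval -0.35 to 0.06, limma adjusted p = 0.592). Of the 10 genes, Tfr2 and Trf varied least, by 1.22-fold and 1.29-fold from lowest to highest mouse.

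Trf (chromosome 9 from 103204001 to 103230444) had scaled read counts of 246966, 243161, 227667 and 240651 in the Low AA mice and 253495, 279472, 285473 and 220957 in the Control mice. Control mouse F2110 was the lowest and the other 3 Control mice the highest of the 8, with a log2 difference of -0.11 (standard error 0.13, limma adjusted p = 0.811). A predicted gene on the same strand, Gm20425, overlaps Trf, and the settings of the counting for shared reads are not given. Tfrc (chromosome 16 from 32608920 to 32632794) encodes the receptor that takes up transferrin-bound iron, and its message is held stable when iron is scarce. It had 1287, 1370, 743 and 675 in the Low AA mice and 1234, 446, 802 and 918 in the Control mice, a 3.07-fold range over most of which the diets overlapped. The log2 difference was 0.28 (standard error 0.32, 95% interval -0.43 to 0.99, limma adjusted p = 0.803). It was 0.002 when F2212, the lowest mouse, was left out. H828, lowest for Hamp, was highest for Tfrc, followed by H1126 and then F129, second lowest for Hamp. Tfrc and Trf were not related across the 8 mice at the threshold (r = -0.33, exact permutation test, two-sided, p = 0.426, rho = -0.07, exact permutation test, two-sided, p = 0.882, with adjusted values of 0.478 and 0.882), and r over the 6 mice nearest the median of Tfrc was 0.11.

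Ferritin stores iron in shells of heavy chains, which oxidise it, and light chains, which hold the mineral core. Ftl1 (chromosome 7 from 45457944 to 45459884) had scaled read counts of 52346, 74388, 73624 and 73881 in the Low AA mice and 85796, 112004, 75211 and 83292 in the Control mice. The highest Low AA mouse, H828, lay just below the lowest Control mouse, F7111, so the separation was narrow, and H1126 was far below the other Low AA mice. The means were 68560 ± 10814 (SD, n = 4) and 89076 ± 15939 (SD, n = 4), a log2 difference of -0.38 (standard error 0.16, 95% interval -0.74 to -0.01, two-sided p = 0.0286 in an exact permutation test, the lowest value open to 4 against 4 mice). It did not pass over all genes (limma adjusted p = 0.409). Without F2212, the highest Control mouse, the difference was -0.26, and without H1126 it was -0.25.

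Fth1 (chromosome 19 from 9980598 to 9985098) had 28092, 24335, 27421 and 32853 in the Low AA mice and 26485, 38300, 24323 and 30200 in the Control mice. These values overlapped across nearly the whole range, with a log2 difference of -0.07 (standard error 0.15, 95% interval -0.41 to 0.27, limma adjusted p = 0.912) that was 0.06 without F2212. The ratio of Ftl1 to Fth1 in scaled read counts ran from 1.86 in H1126 to 3.24 in F129, and its log2 difference between diets was -0.31 (exact permutation test, two-sided, p = 0.114). The relation of Fth1 and Ftl1 across mice had r = 0.51 (exact permutation test, two-sided, p = 0.18, adjusted 0.478) and rho = 0.14 (exact permutation test, two-sided, p = 0.752, adjusted 0.882), and r was -0.08 without the 2 mice farthest from the median of Fth1. Both ferritin genes have processed copies elsewhere in the genome, so their levels depend on how shared reads were counted.

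Slc40a1 (chromosome 1 from 45908068 to 45926523) encodes ferroportin, the iron exporter that hepcidin removes from the cell surface. Its scaled read counts were 3901, 3648, 4088 and 3728 in the Low AA mice and 2936, 3467, 3507 and 2881 in the Control mice. All 4 Low AA mice were above all 4 Control mice, with means of 3841 ± 195 (SD, n = 4) and 3198 ± 335 (SD, n = 4). The log2 difference was 0.27 (standard error 0.10, 95% interval 0.05 to 0.49, two-sided p = 0.0286 in an exact permutation test, again the lowest possible), and it did not pass over all genes (limma adjusted p = 0.314). With each mouse left out in turn it stayed between 0.22 and 0.32.

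Kupffer cells, the liver macrophages that recycle red cell iron, also express ferroportin. Their 10 markers had a median log2 difference of 0.21, with 10 of 10 positive and 0 passing at an adjusted p under 0.05. Their sum was 9180 to 12836 on the Low AA diet and 8559 to 12857 on the Control diet, so the diets overlapped, and none of the markers was at 0. The highest Control sum was that of F2212, and F129, F7111 and F2110 had 9584, 8559 and 8749. Low AA mice H1126, H828, H817 and H1315 had 12666, 9180, 11504 and 12836. The part of Kupffer cells in the Slc40a1 difference was not tested.

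**Figure D3:**
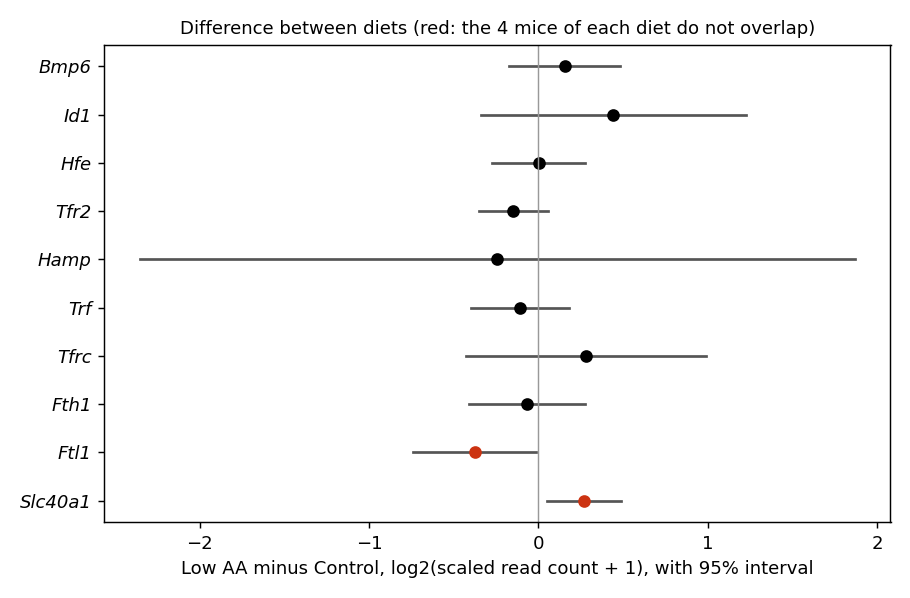
Difference between diets, Low AA minus Control, on the log2(scaled read count + 1) scale (x axis) for the 10 iron regulation genes, with 95% intervals from limma. The intervals of Ftl1 and Slc40a1 (red) exclude 0 before adjustment over all genes, and that of Hamp, from -2.35 to 1.87, is the widest.

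The other genes of iron handling were described from 6 lists holding 100 different genes of the table. In limma 0 of the 100 passed an adjusted p under 0.05. An unadjusted p under 0.05 was found for 14, 4 of them higher and 10 lower, against 11.8% of all genes, and 10 did not overlap between diets, against 6.81%. Their median log2 difference was 0.001, with 51 positive and 49 negative.

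Of 23 genes of BMP-SMAD signalling, 1 had an unadjusted p under 0.05, against 11.8% of all genes, and the median difference was 0.03. Smad6, an inhibitory SMAD induced by BMP signals, had scaled read counts of 49, 74, 60 and 70 in the Low AA mice and 63, 103, 97 and 95 in the Control mice, a log2 difference of -0.49 (limma adjusted p = 0.388). Hfe2, the gene of the BMP co-receptor hemojuvelin, had 2767, 2953, 2952 and 3636 against 2434, 3006, 2482 and 2631, a log2 difference of 0.22 (limma adjusted p = 0.503). Tmprss6, whose protease cuts hemojuvelin and lowers hepcidin, was the 1 gene of the 23 without overlap, against 6.81% of all genes. It was at 9908 to 11373 on the Low AA diet and 8777 to 9841 on the Control diet, a log2 difference of 0.16 (limma adjusted p = 0.551). Sinusoidal endothelial markers, of the cells that make BMP ligands, overlapped between diets with a median log2 difference of 0.07 over 9 genes.

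The IL6-STAT3 list held the largest single differences of the 6 lists, in secreted acute-phase genes. Orm1, an acute-phase glycoprotein gene, had scaled read counts of 2598, 955, 3274 and 5794 in the Low AA mice and 11372, 16131, 9665 and 8111 in the Control mice, a log2 difference of -2.06 (limma adjusted p = 0.0908). With Low AA mouse H1315 left out, Orm1 passed. Saa1 had 715, 68, 549 and 770 against 1068, 57733, 1892 and 2818, a log2 difference of -3.49 (limma adjusted p = 0.261) that was -2.23 without F2212. The diets did not overlap in either gene, both lower on the Low AA diet, against 3.55% of all genes. Leaving out F2212 moved the difference of Saa2 from -2.86 to -1.19 and that of Lcn2 from -0.68 to 0.12. Of the 13 genes 0 passed at an adjusted p under 0.05. Negative differences were found in 10 of the 13, and in 5829 of all 11784 genes. Those of the receptor genes Il6ra and Il6st were -0.01 and 0.05, those of the kinase genes Jak1 and Jak2 -0.04 and -0.18, that of Stat3 -0.16 and that of the feedback inhibitor Socs3 -0.48. H828, lowest for Hamp, was also lowest for Saa1 and Orm1, and F129, second lowest for Hamp, was the second highest for Orm1. Lcn2, an iron-siderophore binding protein gene, was at 82 in H828, 138 in F129, 207 to 391 in the next 5 mice and 1830 in F2212.

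Among 10 genes of iron regulatory proteins and ferritin turnover, the differences of Aco1 and Ireb2, the iron regulatory proteins themselves, were -0.04 and -0.19. Cdc42bpa, a kinase whose message carries an iron-responsive element, had a log2 difference of 0.40 (limma adjusted p = 0.314), and Nubp1, a cytosolic iron-sulphur assembly factor, one of 0.18 (limma adjusted p = 0.495). Of 19 genes of iron and haem transport, Slc48a1, the lysosomal haem exporter, had 1310 to 1660 scaled read counts in the Low AA mice and 1661 to 1860 in the Control mice, a log2 difference of -0.28 (limma adjusted p = 0.298). Abcg2, a porphyrin exporter, had a difference of 0.27 (limma adjusted p = 0.323). The largest difference of this list was that of Scara5, -1.80 (limma adjusted p = 0.346), at low and overlapping values. It had 14, 8, 29 and 89 in the Low AA mice and 34, 74, 221 and 91 in the Control mice. Cp, the gene of the ferroxidase ceruloplasmin that works beside ferroportin, had 34665 to 37088 against 27686 to 34657. Its log2 difference was 0.26 (limma adjusted p = 0.347). Cp and Slc48a1 were the 2 genes of the 19 without overlap, against 6.81% of all genes. Both separations were very narrow, 34665 above 34657 in Cp and 1660 below 1661 in Slc48a1.

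Of 17 genes of haem synthesis and breakdown, 4 had an unadjusted p under 0.05, all 4 lower, against 6.7% of all genes that were lower at this threshold. Of these 17, 3 were lower without overlap, against 3.55% of all genes, and the median log2 difference was -0.04. Pgrmc1, a haem-binding protein gene, had 16132 to 18549 scaled read counts in the Low AA mice and 19427 to 24520 in the Control mice, a log2 difference of -0.32 (limma adjusted p = 0.257). Alas2, the erythroid form of the first enzyme of haem synthesis, had 911 to 1332 against 1362 to 2111, a difference of -0.49 (limma adjusted p = 0.266), and Fech, the last enzyme, had 3293 to 3533 against 3851 to 4910, a difference of -0.29 (limma adjusted p = 0.266). Blvrb had 1326 to 1812 against 1629 to 2586, with overlap, a difference of -0.415 (limma adjusted p = 0.298). F2212 was the highest mouse for Pgrmc1, Alas2 and Blvrb, whose differences without it were -0.25, -0.36 and -0.30. That of Fech was -0.33 without F2212. Alas1, the liver form of the first enzyme, ranged from 9513 in F129 to 43966 in F2212, with a difference of 0.12 (limma adjusted p = 0.94) that was 0.53 without F2212. The haemoglobin genes, which come from red cells, had 3 of 3 negative differences with a median of -0.72, and their sum was 3960 to 6039 on the Low AA diet and 3381 to 13400 on the Control diet, with F2212 highest. None of the 3 was at 0, and their part in the lower Alas2 was not tested.

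Of 18 genes of iron-sulphur cluster assembly, Fdxr, the mitochondrial ferredoxin reductase, had scaled read counts of 310, 363, 349 and 443 in the Low AA mice and 608, 552, 545 and 467 in the Control mice. The log2 difference was -0.57 (limma adjusted p = 0.113). Fdxr was the 1 gene of the 18 whose diets did not overlap, against 6.81% of all genes. An unadjusted p under 0.05 in limma was found for 2 of the 18, against 11.8% of all genes. Isca1, an assembly protein gene, had a difference of 0.22 (limma adjusted p = 0.381), and the median of the list was 0.06.

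**Figure D4:**
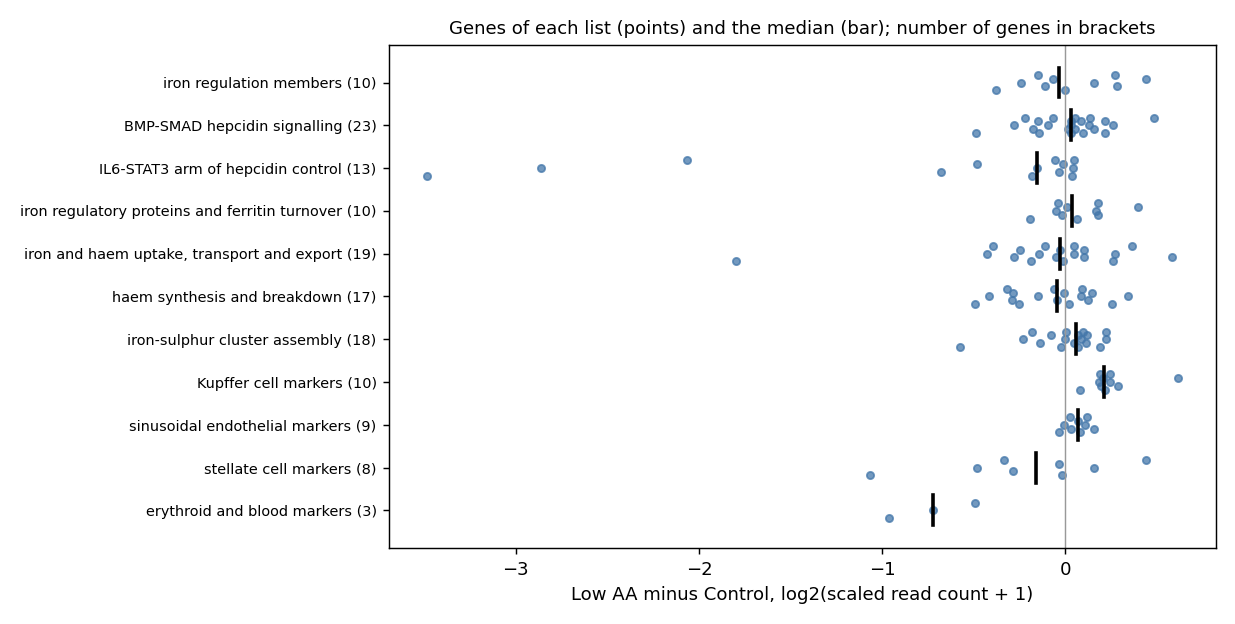
Difference between diets, Low AA minus Control, on the log2(scaled read count + 1) scale (x axis) for each gene (points) of the iron regulation genes, the 6 pathway lists and 4 cell type marker lists, with medians as bars. The pathway medians lie between -0.16 and 0.06, and the acute-phase genes Saa1, Saa2 and Orm1 lie farthest to the left.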

How the data were processed

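Stranded poly(A) liver libraries of 4 Control and 4 Low AA mice were analysed, each mouse as 1 replicate. The authors deposited a signal per gene and mouse, a scaled and rounded read count on 11784 genes, beside their own signed fold change, a score, and an FDR, a q-value of theirs, neither of which was used. Medians over genes, 433.0 to 449.0 in all mice, reflect that scaling, for which no method is stated. The submitters' processing notes name STAR 2.5.0a, RSEM 1.2.6, edgeR 3.10.5 and the build mm10. The third highest value of each gene was at least 28, so genes with low counts are not in the table.

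Because the values are scaled, log2(value + 1) was fitted in R 4.3.3 by limma 3.58.1, using a trended prior variance and no covariate, checked on simulated data. Single values were compared by exact permutation tests in scipy 1.17.1. Positions and lengths are from GENCODE M21 on GRCm38. Of the listed symbols, 3 were matched under older names.

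The members, lists and tests were chosen with earlier results of these data known. Named genes were the 10 members, called genes and the 2 smallest p of each list, the 5 genes most like Hamp, and markers. Hamp2, Id2, Id3, Smad7, Atoh8, Lcn2, Tmprss6, Cp, Scara5, Fech, Blvrb, Alas1, Aco1, Ireb2, Il6ra, Il6st, Jak1, Jak2, Stat3, Socs3, Saa2 and Txndc5 were named after their values were seen, as were the 6 mice with high Hamp, for which relations of Hamp replaced those planned over 8. Alternatives were other pseudocounts, filters, scaling and moderation, and mice left out.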

Additional observations from a re-analysis of the deposited data

Results flagged for a closer look

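In groups of 4 mice, the log2 gap of the lowest or highest mouse to its neighbour was divided by the whole log2 range. In 6 of 44 groups over 22 genes, 1 mouse was far from the other 3. For independent groups of normally distributed values, about 1 in 20 would be. That rate does not hold here, because the groups share mice and some genes were picked by their p in these data. Low AA mouse H828 was far below the others for Hamp (gap over range 0.915) and for Saa1 (0.86). Control mouse F129 was far below for Id1 (0.954) and for Smad6 (0.835). Low AA mouse H1126 was far below for Ftl1 (0.971), where the other 3 were nearly equal. Low AA mouse H1315 was far below for Cdc42bpa (0.871). No mouse was removed for these gaps.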

How the results depend on the processing

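No paired analysis was possible because the labels give no replicate numbers and no litter or cage shared between diets. Of the 10 iron regulation genes 0 passed in limma under any of the alternatives, including an adjusted p under 0.1, with 2 at an unadjusted p under 0.05 in the fit reported and 0 to 2 with each mouse left out. Over 148 fits of single members, 139 kept their direction without passing and 9 changed sign. These were Hamp, from -0.93 to 0.76 with mice left out in turn and 0.08 without both H828 and F129, Hfe, from -0.094 to 0.078, and Fth1, from -0.16 to 0.059. The cause was not tested. Bmp6 and Id1 were not among the 8000 genes with the highest mean.

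Of all genes tested, 47 passed, and 19 passed among the 8000 genes, 30 with no mean-variance trend, 132 at an adjusted p under 0.1, 14 without both H828 and F129, and 16 to 77 with each mouse left out (21 without H1126, 19 without H828, 16 without H817, 29 without F129 and 77 without F2212). Of the pathway genes 0 passed, and 0 to 1 with each mouse left out, the 1 being Orm1 without H1315. With each mouse left out, r lay between 0.86 and 0.93 for Id1 and Bmp6, between 0.045 and 0.62 for Hamp and Id1, between 0.11 and 0.77 for Hamp and Bmp6, between -0.30 and 0.77 for Hamp and Saa1, between -0.044 and 0.71 for Fth1 and Ftl1, and between -0.45 and 0.074 for Tfrc and Trf, and each of these last 3 changed sign without F2212. With 4 mice a diet, Hamp differences of several fold were not detectable.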

Other observations

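The 5 genes most like Hamp over the 8 mice, by Pearson's r on the log2 scale, were Setmar, Rftn1, Slc25a29, Fam160b2 and Zkscan6, with r from 0.97 to 0.92, given as a description since Hamp falls into separate groups of mice. These values rest on H828 and F129, and over the other 6 mice r was 0.40, 0.30, 0.31, 0.68 and 0.62. Setmar, a histone methyltransferase gene, had scaled read counts of 89 in H828 and 109 in F129 and of 132 to 146 in the other mice. With 11784 genes and 8 mice, high values of r among the highest 5 carry no test.

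The ratio of Tfrc to Tfr2 within a mouse, as a percent of scaled read counts, ran from 4.19% in F2212 to 15.5% in H828, and its log2 difference between diets was 0.43 (exact permutation test, two-sided, p = 0.4).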
